A study of Rattus norvegicus with 4 samples.

Results

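The genes of the lysosome and its cathepsins were followed in RT4D6 cells, a rat Schwannoma line, in which Sox10 had been targeted by siRNA. The set is a list of 40 gene symbols, and no threshold on a measured value was part of its rule. Of these, 39 have a probe set that the platform annotation pairs with that gene alone, out of 14217 such genes on the array, and the signal of Npc1 was not analysed here. Where a gene had several probe sets, the brightest by mean log2 signal stood for it. The study compared cells given the wild type Sox10 siRNA (the specific siRNA, 2 arrays) with cells given the mutant Sox10 siRNA (the control, 2 arrays), all sampled at 48 h. All 4 samples therefore come from 1 tumour line, all of them received an siRNA, and untreated cells are not among the samples analysed here. Values below are MAS5 signals as deposited, an intensity per probe set in arbitrary units, on Affymetrix Rat 230 2.0 arrays. Precision is limited by there being 4 arrays. Each p-value reflects only the spread between these 4 samples, which limma estimates for a probe set partly from the other probe sets.

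Lysosomes are the acidic compartments in which cells break down proteins, glycans and lipids. Their hydrolases are made in the endoplasmic reticulum and carried there by sorting receptors, a proton pump (the V-ATPase) keeps the lumen acidic, and heavily glycosylated membrane proteins line the inside of the limiting membrane. Many of these genes are known to be activated together by Tfeb, a helix-loop-helix transcription factor. In Schwann cells, the glia of peripheral nerve, lysosomes are known for clearing myelin debris after nerve injury and for the turnover of myelin lipids.

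Sox10 itself read 163 and 335 on the specific siRNA arrays, against 2873 and 2890 on the mutant siRNA arrays, so that each array shows what its label names. Of the Schwann cell and glial markers listed, 8 of 9 tested were lower with the specific siRNA, beside 10.6% of all genes tested. Of the smooth muscle markers 3 of 6 tested were higher, beside 17.4% of all genes tested. A further 4 smooth muscle markers lay below the array median on every array and were not tested. Macrophages are rich in lysosomes, and 15 of 17 measured markers of macrophages and leukocytes lay below the array median on every array, with signals that summed to 1436 and 1043 on the specific siRNA arrays and to 1054 and 1269 on the others. Ptprc and Csf1r, which define leukocytes and macrophages, had no signal above 80.4. The exceptions were Laptm5, which reached the median only on mutant siRNA replicate 1 (138) and was not tested, and Cd14. Cd14, the 1 tested marker of this list, gave a large part of these sums. It read 778 and 639 on the specific siRNA arrays, against 453 and 695 on the mutant siRNA arrays. Its log2 fold change of 0.41 did not pass (limma adjusted p = 0.263). The summed signal of the Schwann cell markers was 6231 and 6387 on the specific siRNA arrays, against 33465 and 23492 on the mutant siRNA arrays, and that of the smooth muscle markers was 39167 and 50510 against 15893 and 25108. Most of the smooth muscle sum came from Tagln and Cald1, and other smooth muscle markers lay on the lower side, such as Smtn at a log2 fold change of -0.84 (adjusted p = 0.0633, and 0.0127 with the replicate number as a block). The lysosome genes moved beside this change of cell markers, and the part of the one in the other was not tested. In such bulk RNA, more cells of a kind and more RNA per cell cannot be told apart.

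More of the lysosome genes were higher than lower with the specific siRNA. Of those tested, Scarb2, a membrane protein that carries an enzyme to the lysosome, and Atp6v1h, a proton pump subunit, rose most. Of the 39 measured genes, 35 stood at or above the array median on all 4 arrays and were tested. With limma at an adjusted p under 0.05, 12 of the 35 were higher (34.3%) and 1 was lower (2.86%), beside 17.4% higher and 10.6% lower among all 9163 genes tested, each with 1 probe set chosen in the same way. The 12 include Lamp2, for which a further probe set was called lower. Over all 16125 probe sets tested, 14.6% were higher and 12.1% lower. Bright genes were called more often, and 23 of the members lie among the 2291 brightest genes (a mean log2 signal of at least 10.72), in which 23.5% were higher and 9.95% lower. The median log2 fold change (specific minus mutant siRNA) of the 35 genes was 0.51, against 0.19 over all genes tested. Within the pairs of arrays that share a replicate number, the members' median was 0.43 in replicate 1 and 0.47 in replicate 2. After centring on the array median, the specific siRNA arrays lay entirely above the mutant siRNA arrays in 19 of the 35 genes and entirely below them in 6. This was so in 45.3% and 24.4% of all genes and in 53.5% and 20.5% of the 2291 brightest, so the members lay apart about as often as the brightest genes did. Without the intensity trend in limma's variance model, 11 of the 13 called members lost the call, and Scarb2 and Atp6v1h kept it. Leaving out 1 array changed the numbers called, to 4 higher without mutant siRNA replicate 2, 6 higher without wild type siRNA replicate 1 and 0 lower without mutant siRNA replicate 1, and 3 of the 13 called genes (Scarb2, Atp6v0d1 and Atp6v1h) kept the call whichever array was left out.

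**Figure D1:**
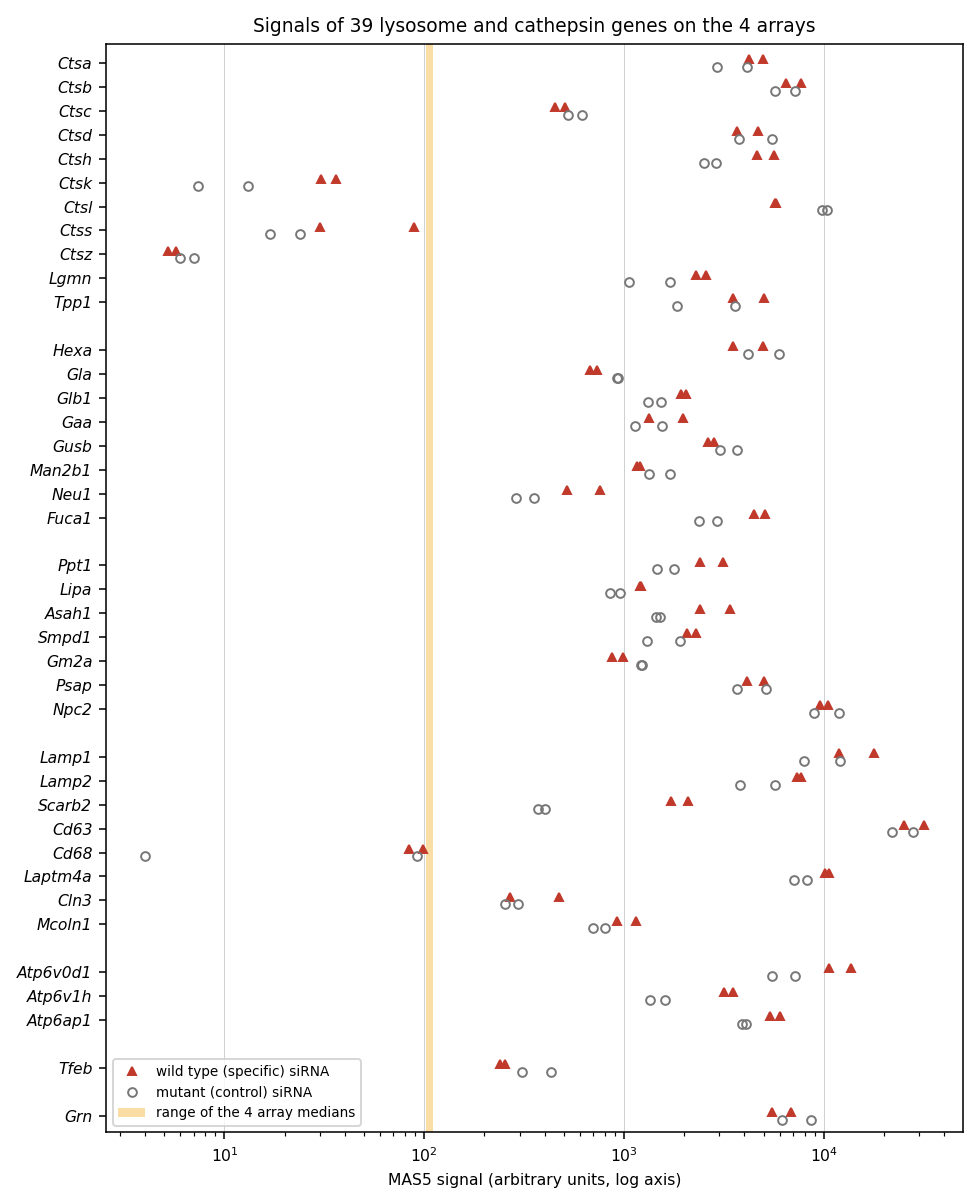
Signals (MAS5, log axis) of the 39 measured lysosome and cathepsin genes, grouped by role. Each triangle is a specific (wild type) siRNA array, each circle a mutant siRNA array, and the shaded band the range of the 4 array medians, below which Ctsk, Ctss, Ctsz and Cd68 lie on every array. Scarb2 shows the widest gap, with the specific siRNA arrays at 2098 and 1709 and the mutant siRNA arrays at 404 and 370.

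Among the 11 lysosomal proteases, Ctsh and Lgmn were higher with the specific siRNA and Ctsl was lower. A further 5 tested proteases did not pass the test. Of the 8 tested, 2 were thus higher and 1 lower, near the shares among the brightest genes, 23.5% and 9.95%. Among all genes these shares were 17.4% and 10.6%. Ctsh, a cysteine protease that trims peptides from their amino end, read 4619 and 5625 on the specific siRNA arrays, against 2887 and 2496 on the mutant siRNA arrays. Both specific siRNA arrays lay above both controls, and the log2 fold change was 1.0 ± 0.19 (SE, adjusted p = 0.00825), a 2.01-fold difference. Lgmn, the protease legumain, which cuts after asparagine and matures several cathepsins, read 2581 and 2293 against 1703 and 1058, a log2 fold change of 0.94 ± 0.25 (SE, adjusted p = 0.0278). The mutant siRNA arrays of Lgmn differed more from each other than the specific siRNA arrays did. Without mutant siRNA replicate 2 the call of Ctsh was lost (adjusted p = 0.0523), and that of Lgmn was lost both there (adjusted p = 0.153) and without wild type siRNA replicate 1 (adjusted p = 0.0576).

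Ctsl, a cysteine endopeptidase found in most cells, was the exception in direction. It read 5686 and 5723 on the specific siRNA arrays, against 10312 and 9734 on the mutant siRNA arrays, and the replicates of each group lay close together. The log2 fold change was -0.73 ± 0.15 (SE, adjusted p = 0.0100), which corresponds to a 1.66-fold lower signal, and leaving out mutant siRNA replicate 1 ended the call (adjusted p = 0.0678). A further probe set of Ctsl read 363 and 462 on the specific siRNA arrays, against 1862 and 1800 on the mutant siRNA arrays. Its log2 fold change of -2.08 ± 0.22 (SE, adjusted p = 0.00162) had the same sign and a larger size, and the call stood with every array left out in turn. This probe set is among those the study itself selected as down-regulated on these same arrays, so it is not independent evidence of the direction.

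Tpp1, a peptidase whose loss causes a neuronal storage disease in humans, read 5005 and 3499 on the specific siRNA arrays, against 3592 and 1838 on the mutant siRNA arrays. The deposited signals overlapped, though not after centring on the array median, and its log2 fold change of 0.78 did not pass (adjusted p = 0.0965), although it did with the replicate number as a block (adjusted p = 0.00292), with wild type siRNA replicate 2 left out (adjusted p = 0.0424) and with mutant siRNA replicate 1 left out (adjusted p = 0.0292). Ctsb, a cysteine protease, and Ctsd, the main aspartic protease of lysosomes, were at 0.23 and -0.06 (adjusted p = 0.364 and 0.860). Ctsc, which activates the serine proteases of immune granules, was at -0.16 (adjusted p = 0.622), with a further probe set at -0.44 (adjusted p = 0.276). Ctsk, known from osteoclasts, Ctss, known from antigen-presenting cells, and Ctsz lay below the median on every array, with signals from 5.20 to 89.0 with the specific siRNA and from 6.0 to 23.9 with the mutant siRNA, and no size of change was taken from them.

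**Figure D2:**
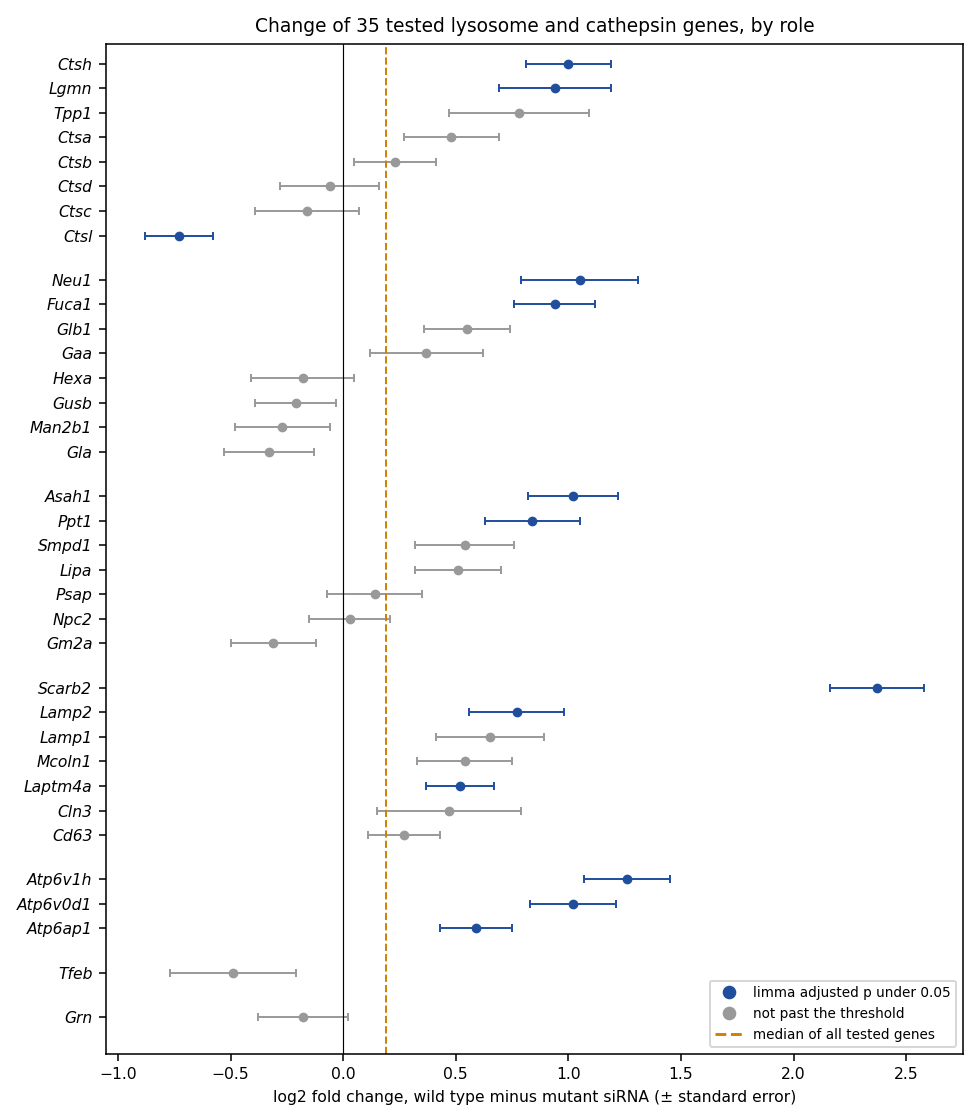
Log2 fold change (specific minus mutant siRNA) of the 35 tested lysosome and cathepsin genes, grouped by role and ordered within each role. Points are the limma estimates and bars the standard error, blue where the adjusted p is under 0.05, and the dashed line is the median over all genes tested, 0.19. Scarb2 lies farthest to the right at 2.37, all 3 proton pump genes are blue, and Ctsl at -0.73 is the single blue point left of 0.

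Of the 8 enzymes that cut sugars from glycoproteins and glycolipids, Neu1 and Fuca1 were higher and the other 6 did not pass. These 2 of 8 lay near the share called higher among the brightest genes, 23.5%, beside 17.4% among all genes. The median log2 fold change of the 8 was 0.10, against 0.19 over all genes tested. Neu1, the lysosomal sialidase, read 756 and 515 on the specific siRNA arrays, against 288 and 353 on the mutant siRNA arrays, a log2 fold change of 1.05 ± 0.26 (SE, adjusted p = 0.0219). A further probe set, at 319 and 200 against 182 and 182, had the same sign and did not pass, at 0.55 (adjusted p = 0.237). The call of Neu1 was lost without wild type siRNA replicate 1, mutant siRNA replicate 1 or mutant siRNA replicate 2 (adjusted p = 0.0942, 0.108 and 0.0622). Fuca1, which removes fucose, read 5041 and 4469 against 2900 and 2369. The groups were well apart at a log2 fold change of 0.94 ± 0.18 (SE, adjusted p = 0.00907), and leaving out mutant siRNA replicate 2 ended the call (adjusted p = 0.0602).

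Neu1 works in a complex with Glb1, the lysosomal beta-galactosidase, and Ctsa, the protective protein that stabilizes both. Glb1 read 2028 and 1919 on the specific siRNA arrays, against 1537 and 1311 on the mutant siRNA arrays, and Ctsa had 4974 and 4202 against 4111 and 2925. In both genes the groups did not overlap, but the log2 fold changes of 0.55 and 0.48 did not pass (adjusted p = 0.0617 and 0.119). With the replicate block they did (adjusted p = 0.0319 and 0.0263). Gaa, which degrades glycogen, was at 0.37 and Gusb, which degrades glycosaminoglycans, at -0.21, while Man2b1, a mannosidase, was at -0.27 (adjusted p = 0.290, 0.404 and 0.357). Gla, the alpha-galactosidase of Fabry disease, read 671 and 735 on the specific siRNA arrays, against 937 and 922 on the mutant siRNA arrays, in the chosen probe set, and 854 and 787 against 927 and 597 in another. The log2 fold changes of -0.33 and 0.22 differed in sign and neither passed (adjusted p = 0.261 and 0.555).

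In the handling of lipids, Asah1 and Ppt1 were higher, and 5 further tested genes did not pass. That share, 28.6%, lay beside 17.4% higher among all genes and 23.5% among the brightest. Asah1, the acid ceramidase, which splits ceramide into sphingosine and fatty acid, read 3369 and 2389 on the specific siRNA arrays, against 1446 and 1517 on the mutant siRNA arrays. The log2 fold change was 1.02 ± 0.20 (SE, adjusted p = 0.0102), and leaving out mutant siRNA replicate 1 ended the call (adjusted p = 0.0548). A further probe set of Asah1, with signals of 3179 and 2116 against 1207 and 1970, was at 0.83 (adjusted p = 0.0537), and passed with the replicate block (adjusted p = 0.0147), with wild type siRNA replicate 2 left out (adjusted p = 0.0145) and with mutant siRNA replicate 2 left out (adjusted p = 0.0420). Ppt1, a thioesterase that removes fatty acids from proteins, read 3117 and 2388 against 1776 and 1462, a log2 fold change of 0.84 ± 0.21 (SE, adjusted p = 0.0205). Leaving out wild type siRNA replicate 1 or mutant siRNA replicate 2 ended this call (adjusted p = 0.0757 and 0.120).

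Smpd1, the acid sphingomyelinase, which makes the ceramide that Asah1 splits, read 2062 and 2297 on the specific siRNA arrays, against 1304 and 1909 on the mutant siRNA arrays. These did not overlap but lay close, and the log2 fold change of 0.54 passed only with the replicate block (adjusted p = 0.102, and 0.0328 with the block). Lipa, the acid lipase of cholesteryl esters, was at 0.51 (adjusted p = 0.0821). Hexa, a subunit of hexosaminidase A, was at -0.18 and Gm2a, the activator protein that presents a ganglioside to that enzyme, at -0.31 (adjusted p = 0.592 and 0.25). Psap, the precursor of the saposin activators, and Npc2, a cholesterol carrier of the lumen, were at 0.14 and 0.03 (adjusted p = 0.638 and 0.908), and Npc2 turned to -0.05 with the signals as deposited and -0.11 with quantile normalization.

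Scarb2 stood out among the membrane proteins. It encodes LIMP-2, which carries glucocerebrosidase from the endoplasmic reticulum to the lysosome. It read 2098 and 1709 on the specific siRNA arrays, against 404 and 370 on the mutant siRNA arrays, a mean of 1904 ± 275 against 387 ± 24.3 (SD, n = 2 each). Replicates agreed within each group, and the difference was 2.41 on the log2 scale in the replicate 1 arrays and 2.33 in the replicate 2 arrays. The log2 fold change was 2.37 ± 0.21 (SE, adjusted p = 0.00126), a 5.17-fold difference, and with any 1 array left out the adjusted p was at most 0.0111.

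Laptm4a, a small membrane protein of late endosomes and lysosomes, read 10572 and 10133 on the specific siRNA arrays, against 8183 and 7111 on the mutant siRNA arrays. The groups were apart, yet the log2 fold change of 0.52 ± 0.15 (SE, adjusted p = 0.0362) was a weak call. It was lost without the intensity trend (adjusted p = 0.136) and without a filter on dim probe sets (adjusted p = 0.0968). It was also lost with the signals as deposited (adjusted p = 0.0600), with quantile normalization (adjusted p = 0.0819) and with any array left out. Leaving out wild type siRNA replicate 1 or 2 gave an adjusted p of 0.115 and 0.0861, and leaving out mutant siRNA replicate 1 or 2 gave 0.0683 and 0.195. Lamp1, one of the most abundant glycoproteins of the lysosomal membrane, read 17762 and 11927 on the specific siRNA arrays, against 12040 and 7988 on the mutant siRNA arrays. Here the replicate 1 arrays were the brighter ones in each group, so that the signals overlapped before centring, and the log2 fold change of 0.65 did not pass (adjusted p = 0.0767) except with the replicate block (adjusted p = 0.000386), with wild type siRNA replicate 2 left out (adjusted p = 0.0224) and with mutant siRNA replicate 1 left out (adjusted p = 0.0460). Cd63, a tetraspanin of multivesicular bodies, was at 0.27 (adjusted p = 0.247, and 0.0185 with the block). Mcoln1, the calcium channel of the lysosomal membrane, was at 0.54 (adjusted p = 0.0958), and Cln3, a membrane protein mutated in juvenile Batten disease, was between 0.36 and 0.62 in its 3 probe sets, none past the threshold. Further probe sets of Lamp1, and of Lgmn and Man2b1, were too dim to be tested. Cd68, a glycoprotein best known from macrophages, lay below the median on all arrays, at 84.0 and 98.5 on the specific siRNA arrays, against 4.0 and 92.3 on the mutant siRNA arrays, which overlap.

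For Lamp2 the direction depended on the probe set. This gene is known to give splice forms that differ in the part spanning the membrane and the short tail in the cytosol, and which forms each probe set detects was not determined here. The chosen probe set read 7676 and 7355 on the specific siRNA arrays, against 5720 and 3780 on the mutant siRNA arrays, a log2 fold change of 0.77 ± 0.21 (SE, adjusted p = 0.0312). A further one read 1623 and 1868 on the specific siRNA arrays, against 3447 and 3457 on the mutant siRNA arrays, a log2 fold change of -0.91 ± 0.18 (SE, adjusted p = 0.00974). In each probe set the groups did not overlap, and they passed the test in opposite directions. Of the 8 members with more than 1 tested probe set, Lamp2 was the single one of this kind, and among all genes 77 of 2618 were (2.94%). The higher call was lost without wild type siRNA replicate 1 (adjusted p = 0.0620) and mutant siRNA replicate 2 (adjusted p = 0.168), and the lower one without mutant siRNA replicate 1 (adjusted p = 0.0590) and mutant siRNA replicate 2 (adjusted p = 0.0526). The mean over both probe sets was at -0.07 (adjusted p = 0.801), so that no direction can be given for the gene.

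**Figure D3:**
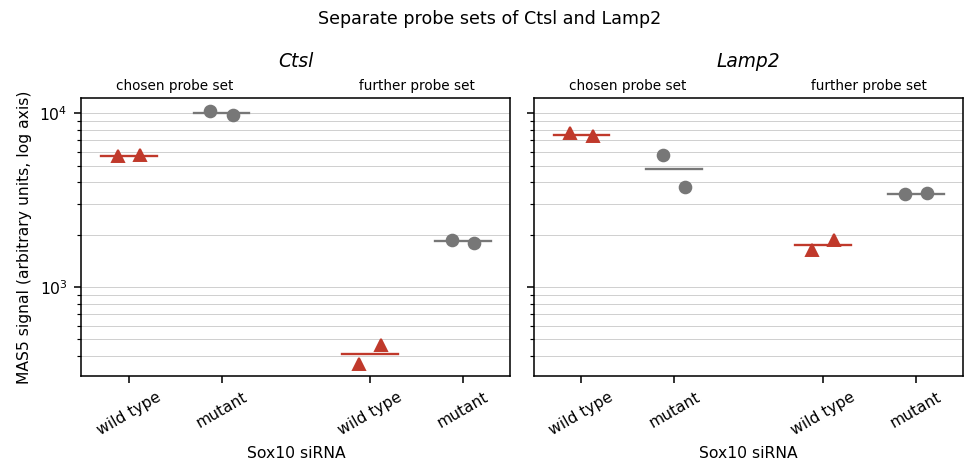
Signals (MAS5, log axis) of both probe sets of Ctsl (left) and of Lamp2 (right). Red triangles are the specific (wild type) siRNA arrays, grey circles the mutant siRNA arrays, and lines the mean of each pair. Ctsl is lower with the specific siRNA in both probe sets, whereas Lamp2 is higher in the chosen probe set (7676 and 7355 against 5720 and 3780) and lower in the further one (1623 and 1868 against 3447 and 3457).

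All 3 genes of the proton pump were higher with the specific siRNA. Atp6v1h, a subunit of the V1 sector, which splits ATP on the cytosolic side, read 3505 and 3166 on the specific siRNA arrays, against 1605 and 1342 on the mutant siRNA arrays. With a log2 fold change of 1.26 ± 0.19 (SE, adjusted p = 0.00372) it kept the call whichever array was left out (highest adjusted p = 0.0259). Atp6v0d1, a subunit of the V0 sector, which passes the protons through the membrane, had 13665 and 10605 against 7194 and 5487. Both pairs of arrays gave a similar difference, 0.96 and 1.07 on the log2 scale, and the log2 fold change was 1.02 ± 0.19 (SE, adjusted p = 0.00814). The call of Atp6v0d1 was lost without the intensity trend (adjusted p = 0.0565). Atp6ap1, an accessory protein of the pump, read 6054 and 5366 against 3897 and 4089, a smaller log2 fold change of 0.59 ± 0.16 (SE, adjusted p = 0.0260). That call was lost without wild type siRNA replicate 1, mutant siRNA replicate 1 or mutant siRNA replicate 2 (adjusted p = 0.105, 0.112 and 0.100).

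Of the 15 other pump subunits tested, 8 were higher and none was lower. Together with the members, 11 of 18 pump genes were higher, beside 17.4% of all genes and 23.5% of the brightest, and their median log2 fold change was 0.65. In 17 of the 18 it was above 0, as in 62.2% of all genes and 67.8% of the brightest. The number higher was 3 without the intensity trend, 5 with wild type siRNA replicate 1 left out and 4 with mutant siRNA replicate 2 left out. In the V1 sector 7 of 8 passed, between 0.59 and 1.26, and Atp6v1e1 did not (0.31, adjusted p = 0.227). In the V0 sector 3 of 8 passed. The small V0 subunit Atp6v0e1 read 6155 and 6109 on the specific siRNA arrays, against 1841 and 1791 on the mutant siRNA arrays, a log2 fold change of 1.83 ± 0.16 (SE, adjusted p = 0.00126). Its relative Atp6v0e2 had 3363 and 2010 against 630 and 701, at 2.05 ± 0.25 (SE, adjusted p = 0.00230). In both, the groups were far apart beside the spread of the replicates. Atp6v0c, the proteolipid of the proton ring, was at 0.10 (adjusted p = 0.649), and Tcirg1, a V0 subunit known from osteoclasts, was the single pump gene below 0, at -0.58 (adjusted p = 0.104, and 0.0391 without wild type siRNA replicate 2).

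**Figure D4:**
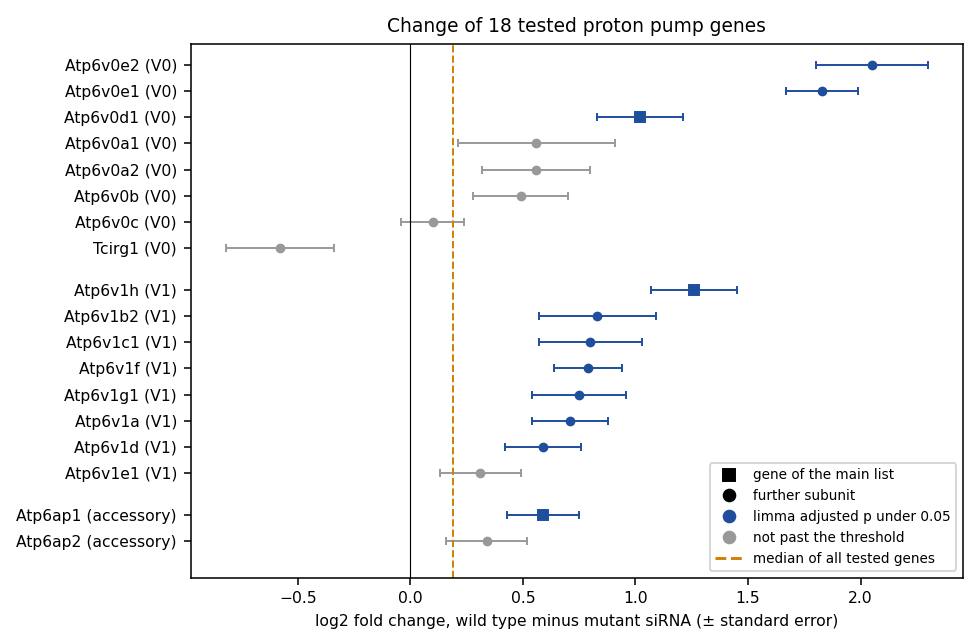
Log2 fold change (specific minus mutant siRNA) with its standard error of the 18 tested genes of the proton pump, by sector. Squares are genes of the main list and circles further subunits, blue where the limma adjusted p is under 0.05, and the dashed line is the median over all genes tested, 0.19. Of the 18 genes 11 are blue, all right of 0, from 0.59 to 2.05, and Tcirg1 alone lies left of 0.

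Tfeb, the regulator of lysosomal genes, was not among the genes that passed. It read 240 and 252 on the specific siRNA arrays, against 308 and 430 on the mutant siRNA arrays, lower in both pairs but with mutant siRNA arrays that differed from each other, and the log2 fold change was -0.49 ± 0.28 (SE, adjusted p = 0.215). Its relative Tfe3 was at 0.09 in the chosen probe set and 0.10 in another (adjusted p = 0.807 and 0.880). The relatives Mitf and Tfec were below the filter, with Mitf between 62.9 and 130 with the specific siRNA and between 76.5 and 110 with the mutant siRNA in its chosen probe set. Grn, the precursor of the granulins, which are needed for lysosomal function in neurons and microglia, was at -0.18 (adjusted p = 0.542).

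Tfeb is known to bind an E-box flanked by further fixed bases, and the promoter windows of the members were searched for it. RefSeq (GRCr8) gave windows from 250 bases before to 50 after the gene start for 34 of the 40 genes. The E-box CACGTG, which reads the same on both strands, was found in 8 of the 34 (23.5%), beside 6.42% of all 33469 windows and 7.02% of the 21851 protein-coding ones, and the longer form TCACGTGA, also the same on both strands and holding the E-box, in 5 (14.7%) beside 0.777% and 1.02%. Npc1 is among the 34. The 6 sites of the longer form are shown because few windows hold that form, which resembles the known Tfeb element, with it in capitals and 6 bases on each side:
Atp6v0d1, chr19:50357288-50357307, minus strand: ttgtggTCACGTGAgatgca
Cln3, chr1:190597955-190597974, minus strand: gtactgTCACGTGAtcccca
Ctsd, chr1:206968819-206968838, minus strand: cgcgtcTCACGTGAcccgtt
Lamp1, chr16:83075089-83075108, minus strand: cactgtTCACGTGAcaggcg
Lamp1, chr16:83075116-83075135, minus strand: ctcggcTCACGTGAccggcg
Mcoln1, chr12:6358255-6358274, plus strand: ccccgcTCACGTGAccgcgg

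Lamp1 held 5 E-boxes in its window, 2 of them of the longer form. Among the members with a window, the E-box was in 1 of the 9 called higher, Atp6v0d1, and in 7 of the 19 that were tested and not called, namely Cd63, Cln3, Ctsd, Gaa, Glb1, Lamp1 and Mcoln1. The window of Ctsl, the member called lower, did not hold these letters. The core that the study searched for as a Sox element, ACAAT on either strand, was in 5 of the 34 windows (14.7%) beside 33.7% of all windows and 29.9% of the protein-coding ones, and in 1 of the 9 members called higher. The study searched a longer region, up to the end of the first intron, and required conservation between species. These shares in short windows therefore do not repeat its search. A match is a description of letters and not a site shown to be bound.

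Beyond these members, the rest of the lysosomal pathway was taken from a list of 145 genes, of which 127 had a probe set of their own and 111 were tested. Of these, 37 were higher (33.3%) and 2 lower (1.80%) by the same rule, beside 17.4% and 10.6% of all genes and 23.5% and 9.95% of the brightest, and their median log2 fold change was 0.38. By role, 14 of 31 genes of sorting to lysosomes were higher, 8 of 15 further pump subunits, 5 of 25 further hydrolases, 5 of 18 further membrane proteins, 4 of 20 genes of autophagy and Tfeb relatives and 1 of 2 protease inhibitors. The shares of the further hydrolases and of the autophagy genes, 20.0% each, were near those of all genes. The sorting genes include Sort1, for which a further probe set was called lower. The counts moved with single arrays, to 11 higher without mutant siRNA replicate 2, 18 without mutant siRNA replicate 1 and 14 without wild type siRNA replicate 1.

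The largest rises of that list, beside the V0 subunits above, were Slc36a1 and Vps33a. Slc36a1, an amino acid transporter of the lysosomal membrane, read 288 and 150 on the specific siRNA arrays, against 6.30 and 20.9 on the mutant siRNA arrays. The mutant siRNA signals lie below the 25th percentile of their arrays (27.3 and 31.1), close to background, so the log2 fold change of 4.26 ± 1.01 (SE, adjusted p = 0.0182) gives no reliable size, and the call was lost without wild type siRNA replicate 1 (adjusted p = 0.254). Vps33a, a tether of vesicle fusion, had 974 and 896 against 332 and 238, a log2 fold change of 1.81 ± 0.25 (SE, adjusted p = 0.00306), but its 2 other tested probe sets were at -0.43 and -0.09 and did not pass. In the chosen probe sets, the 2 genes that were lower were Abcb9, a peptide transporter of the lysosomal membrane, and Arsb, a sulfatase of glycosaminoglycans. Abcb9 read 150 and 77.4 on the specific siRNA arrays, against 539 and 531 on the mutant siRNA arrays, a log2 fold change of -2.23 ± 0.35 (SE, adjusted p = 0.00466). Arsb had 607 and 655 against 1536 and 1509, at -1.19 ± 0.20 (SE, adjusted p = 0.00542), with a further probe set at -0.03 (adjusted p = 0.933). Slc11a2, a membrane protein of this list, did not pass in its chosen probe set (0.68, adjusted p = 0.0956, and 0.0323 with the replicate block). A further probe set of Slc11a2 was lower, at -1.75 ± 0.25 (SE, adjusted p = 0.00336).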

How the data were processed

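RNA of 2 specific and 2 mutant siRNA samples was measured on 1-colour arrays. The authors deposited MAS5 intensity values on a linear scale, scaled so that each array's mean without the lowest and highest 2% is 500. The submitters' notes name MAS5, with no version given in the sources used here. Detection calls were not used. Array medians were between 101.7 and 110.9. Of 31042 probe sets left after 57 controls, 20826 have a single gene symbol in the platform annotation, 436 several and 9780 none there.

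From each log2 signal the median of its array was subtracted, since the study used median normalization. A probe set was kept if 2 or more arrays had it at their median or higher, which left 16125. They were fitted with limma (version 3.58.1, R 4.3.3) using lmFit and a trended eBayes, and Benjamini-Hochberg adjustment ran over all of them. The fit was tested on simulated data. The median log2 fold change over these probe sets was 0.13, against 0.05 for deposited signals left uncentred and 0.08 for quantile-normalized ones, so changes are relative to such a shift. Plots came from matplotlib 3.10.9 and tables from pandas 2.3.3, under Python 3.11.15.

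The submitters' design and the study describe pairs of cell samples, taken here as the replicate numbers. Arrays that share a number deviated together from the mean of their group with r = 0.14. The replicate block was an alternative, as were other scalings, floors, filters, variance models, probe set rules, the methods' t-test and each array left out. In the last, the lone array of a group is assumed to vary like the other group.

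The members, lists and rules were chosen with earlier results of these data known. All members were accounted for. Of the list of other lysosome genes, named were the 4 called with the largest rise, those called lower, and the relatives of Tfeb. Atp6v1e1, Atp6v0c, Tcirg1, Sort1, Slc11a2, Smtn, Laptm5 and Cd14 were named after their values were seen, as were the genes in the closing observations.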

Additional observations from a re-analysis of the deposited data

How the results depend on the processing

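The direction of 11 of the 12 higher members, and of Ctsl, stood under each alternative run, with Lamp2 as the exception. The 12 higher and 1 lower members became 2 and 0 without the intensity trend (Scarb2 and Atp6v1h passed), 0 and 0 with the methods' t-test after Benjamini-Hochberg adjustment, and 8 and 2 at its unadjusted p of 0.05. With single arrays left out they were between 4 and 13 higher and between 0 and 1 lower. The 37 higher and 2 lower genes of the other lysosome list became 11 higher without the trend, 0 and 0 with the adjusted t-test, and 1 lower with a filter on all 4 arrays or with the mean over probe sets. They were between 11 and 36 higher and 2 and 3 lower with an array left out. Over all probe sets, 2348 were higher and 1956 lower, against 1177 and 1187 without the trend, 2 and 0 with the adjusted t-test, 1940 and 2280 with the signals as deposited, 2043 and 2150 with quantile normalization, and 924 to 2128 and 706 to 2519 with an array left out. The replicate block, with 2 pairs, gave 18 higher members and 1 lower, and 3308 and 2580 probe sets, and ended no call of a member. The members' median of 0.51 was 0.43 with the signals as deposited and 0.45 with quantile normalization.

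Of the members that did not pass, some changed sign when single arrays were left out. Over these fits Ctsd ranged between -0.35 (mutant siRNA replicate 2 left out) and 0.23 (mutant siRNA replicate 1 left out), Hexa between -0.46 and 0.10, Grn between -0.43 and 0.08, Psap between -0.12 and 0.40 and Npc2 between -0.19 and 0.26. Npc2 was also at -0.05 with the signals as deposited and -0.11 with quantile normalization. Lamp2, which did pass, was at -0.07 as the mean over its probe sets, which were called in opposite directions. The cause of these changes was not tested. Dim probe sets limit what can be said of Ctsk, Ctss, Ctsz, Cd68 and Slc36a1, since the 25th percentile of the arrays lies between 26.2 and 31.1.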

Other observations

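The sorting receptor Sort1 resembled Lamp2 in that its probe sets passed the test in opposite directions, the single gene of the other lysosome list to do so among 37 with more than 1 tested probe set. Sort1 carries hydrolases and lipid activators from the Golgi to the lysosome. The brighter probe set read 2106 and 1742 on the specific siRNA arrays, against 702 and 535 on the mutant siRNA arrays, a log2 fold change of 1.72 ± 0.22 (SE, adjusted p = 0.00268 from limma). The other read 319 and 423 on the specific siRNA arrays, against 1607 and 1477 on the mutant siRNA arrays, at -1.99 ± 0.23 (SE, adjusted p = 0.00209). In both the replicates lay close together beside the difference between groups. M6pr, the receptor that brings mannose 6-phosphate tagged hydrolases to the lysosome, was higher in its single probe set, at 9050 and 8742 with the specific siRNA against 6165 and 6356 with the mutant siRNA (log2 fold change 0.59, adjusted p = 0.0204), a call that ended whichever array was left out (adjusted p between 0.0518 and 0.0896).

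The enzymes that break down the myelin lipids sulfatide and galactosylceramide gave no shared direction. Arsa, the sulfatase of sulfatide, read 1095 and 514 on the specific siRNA arrays, against 548 and 576 on the mutant siRNA arrays in its chosen probe set, which overlap (log2 fold change 0.50, adjusted p = 0.283, and 0.0140 with wild type siRNA replicate 2 left out). A further probe set of Arsa had 609 and 417 against 236 and 183 and was higher, at 1.36 ± 0.29 (SE, adjusted p = 0.0124), but not with wild type siRNA replicate 1 or mutant siRNA replicate 2 left out (adjusted p = 0.0510 and 0.0699). Galc, the galactosylceramidase, read 409 and 487 on the specific siRNA arrays, against 590 and 632 on the mutant siRNA arrays, a log2 fold change of -0.37 that did not pass (adjusted p = 0.249).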
